A study of Mus musculus with 24 samples.

Results

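Callosal and corticothalamic neurons of the mouse cortex were compared here at postnatal day 1 (P1), in the RNA of cells that had been sorted from newborn animals. The comparison covers 7820 genes of the 9767 in the deposited expression table. A gene was included when it reached at least 10 FPKM (fragments per kilobase of transcript, relative to all mapped fragments) in either class at P1, after microRNA, small nucleolar RNA and clone-named entries, and predicted genes listed at 0 throughout one class, were set aside. The rule removed 1882 genes that were under the minimum at P1 and 65 entries by their symbol. The nearest genes above the minimum were Smarcd2, at 10.003 FPKM, and A630007B06Rik, at 10.0132 FPKM, and the nearest below it were Scaf4, at 9.99332 FPKM, and Mast4, at 9.99142 FPKM.

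The callosal projection neurons (Cux2 CPN) came from Cux2-CreERT2:Ai14 mice and the corticothalamic projection neurons (Tle4 CThPN) from Tle4-2A-CreERT2:Ai14 mice. The labels give the strain as C57BL/6, and the study's methods describe a mixed C57BL/6J background. Ai14 is a reporter that makes cells fluoresce red with tdTomato once Cre has acted, and Cre was switched on by 4-hydroxytamoxifen given to the pregnant dams. Somatosensory and motor cortex was dissociated with papain, and pools of 5000 to 10000 red cells were sorted per library. Each class was sequenced at P1 as 2 libraries, 4 in all, from pooled animals of both sexes. The same classes were sampled in other libraries late in gestation (E18.5) and at P3, P7, P21 and P48, and these serve below to show how each P1 difference stood at other ages. The table holds 1 value per class and age, computed over both libraries, so that no error, interval or test can be given and every value describes these pools. FPKM do not keep read numbers, and the study's methods give only a lower bound for the depth, so the depth of each library is unknown. Cux2-CreERT2 is known to label some cortical interneurons as well as pyramidal neurons, and in sorted pools, fewer cells of a type and less RNA per cell cannot be told apart.

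Pyramidal neurons of the cortex are born in order, with those of layer 6 first and those of the upper layers last. Corticothalamic neurons of layer 6 send axons to the thalamus and depend on transcription factors such as Tbr1 and Sox5, whereas callosal neurons of layers 2 and 3 send axons through the corpus callosum to the other hemisphere. Around birth corticothalamic neurons have settled in layer 6 while the last callosal neurons are still completing their migration, and both classes are extending axons.

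Differences are given on the log2(FPKM + 1) scale as Cux2 CPN minus Tle4 CThPN, with a limit of 1.5 for calling a gene higher in one class. This scale understates differences of low genes. By that limit 213 genes were higher in Cux2 CPN, which is 2.72% of the 7820 genes, and 207 were higher in Tle4 CThPN, which is 2.65%. Most genes differed little: 5958 differed by less than 0.5 (76.2%), and the median difference was 0.04, with quartiles at -0.20 and 0.28. Differences of at least 3 were found in 94 genes, 37 in favour of Cux2 CPN and 57 in favour of Tle4 CThPN. Of the genes past the limit, 198 of 213 (93.0%) and 178 of 207 (86.0%) were protein-coding, against 97.0% of all 7820.

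**Figure D1:**
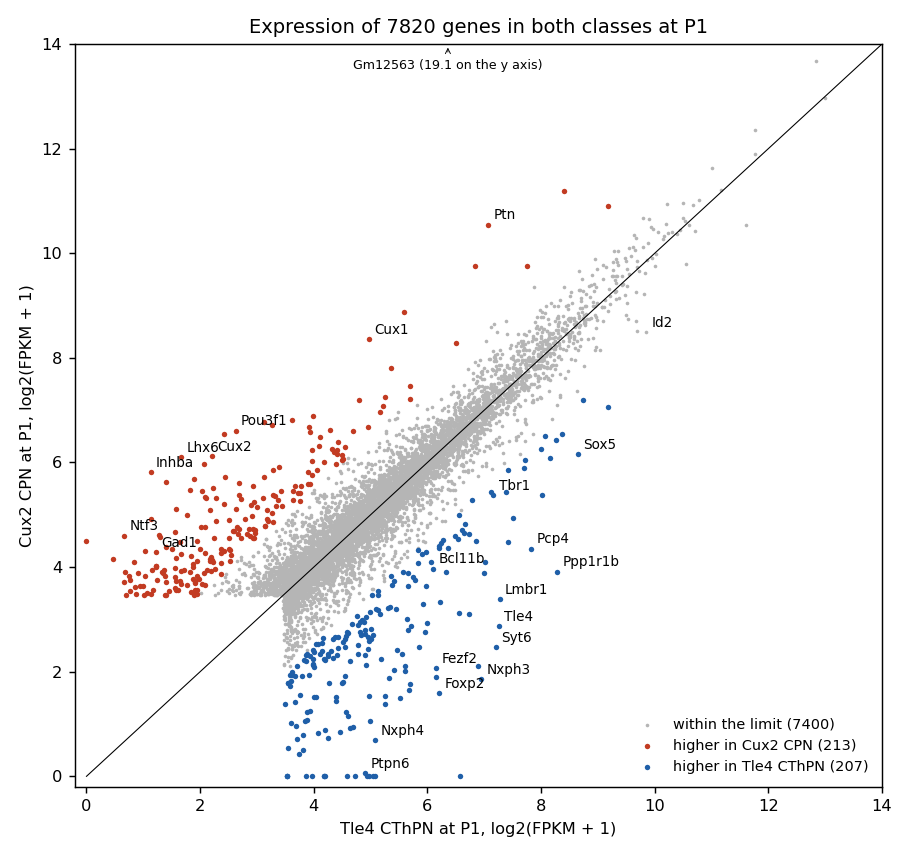
Expression of 7820 genes at P1, each point a gene, with log2(FPKM + 1) in Tle4 CThPN on the x axis and in Cux2 CPN on the y axis. Red points are the 213 genes higher in Cux2 CPN by at least 1.5, blue points the 207 higher in Tle4 CThPN, gray points lie within the limit, and the line marks equal values. Gm12563 lies beyond the y axis.

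The genes that drive Cre checked the labels. Cux2 was at 68.4 FPKM in Cux2 CPN against 3.62 FPKM in Tle4 CThPN, and Tle4 was at 6.32 FPKM in Cux2 CPN against 151 FPKM in Tle4 CThPN. Each driver gene was higher in its own class, at P1 and at the other ages.

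Among transcription factors that mark callosal and upper-layer neurons, the homeobox gene Cux1 was at 327 FPKM in Cux2 CPN against 30.4 FPKM in Tle4 CThPN, a difference of 3.39. Lhx2, a LIM homeobox gene, was at 104 and 8.65 FPKM (3.44). The POU factors Pou3f1 (96.5 against 5.17 FPKM, 3.98) and Pou3f2 (17 against 2 FPKM, 2.59) were also higher in Cux2 CPN, and Pou3f3 (41.6 against 14.7 FPKM, 1.44) lay just under the limit. In the list of callosal and upper-layer identity genes, 26 of 30 entries were members, 15 were higher in Cux2 CPN, 1 was higher in Tle4 CThPN, and their median difference was 2.10, beside 2.72% and 2.65% of all genes. Of the members, 8 reached the minimum of 10 FPKM only through Cux2 CPN, so that a high value there had placed them in the comparison. Over all 30 entries, whatever their level, 18 were past the limit toward Cux2 CPN and 1 toward Tle4 CThPN, with a median of 2.01. A difference below 0 was found in 5 members, among them Kcnn2 (-1.01), and the one past the limit was Dkk3, an extracellular Wnt modulator, at 25 against 96.9 FPKM (-1.91).

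Among protein-coding genes, the corticothalamic side was led by Nxph3, which encodes a secreted ligand of neurexins, at 2.63 FPKM in Cux2 CPN against 123 FPKM in Tle4 CThPN (-5.09). With a pseudocount of 0.1 its difference was -5.49, behind Ptpn6 (-7.66) and Nxph4 (-5.53). Islr2, a membrane protein with leucine-rich repeats, was at 3.31 and 118 FPKM (-4.79), and Syt6, a synaptotagmin, at 4.53 and 147 FPKM (-4.74). The transcription factor Foxp2 was at 2 and 72.5 FPKM (-4.61). Fezf2, a zinc finger regulator of deep-layer fate, was at 3.18 and 70.1 FPKM (-4.09). Ppp1r1b, which encodes the phosphatase inhibitor DARPP-32, was at 14.1 and 311 FPKM (-4.37), and Drd1a, a dopamine receptor that signals through it, was at 2.39 and 50.7 FPKM (-3.93).

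The corticothalamic and layer 6 list had 27 members, of which 20 were higher in Tle4 CThPN and 0 in Cux2 CPN, with a median of -2.64, beside 2.65% and 2.72% of all genes. Of these members, 14 reached the minimum only through Tle4 CThPN. Over the 28 entries in the table, 20 and 0 were past the limit, with a median of -2.57. Sox5, which controls the order of deep-layer fates, was at 70.2 FPKM in Cux2 CPN against 401 FPKM in Tle4 CThPN (-2.50), and Tbr1 was at 40.6 and 142 FPKM (-1.78). Cntn6 (1.08) and Lmo3 (0.82) had the opposite sign within the limit. The 4 subplate and layer 6b members reached the minimum only through Tle4 CThPN, so their direction was largely set by it: Nxph4 at 0.609 against 32.7 FPKM, Tmem163 at 1.07 against 30.9 FPKM, Ctgf at 1.6 against 37.2 FPKM and Cplx3 at 0.461 against 10.7 FPKM. The other 2 genes of that list in the table, under the minimum, were Nr4a2 (4.01 against 7.22 FPKM, -0.72) and Pde1a (3.33 against 4.62 FPKM, -0.38). The layer 5 list had 8 members and 4 were higher in Tle4 CThPN, among them Bcl11b (14.7 against 67.6 FPKM, -2.13) and Pcp4 (19.4 against 226 FPKM, -3.48), beside 2.65% of all genes. Its other members included S100a10 (-0.03), Igfbp4 (0.59) and Cntn6 (1.08). Of the 6 layer 4 members, Rorb (1.88) and Cdh8 (1.51) were higher in Cux2 CPN, and Kitl (-2.59) and Whrn (-2.51) were higher in Tle4 CThPN, with a median of -0.28 over the members and 0.32 over the 10 list genes in the table.

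**Figure D2:**
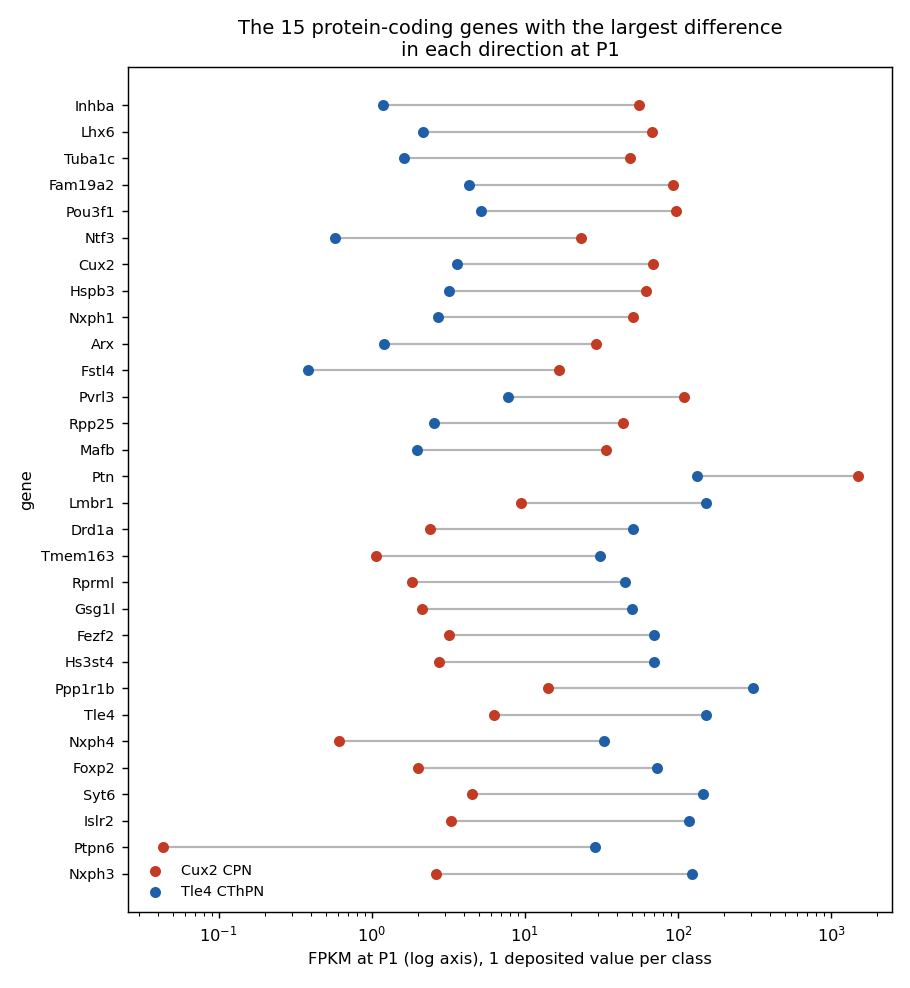
FPKM at P1 on a log axis for the 15 protein-coding genes with the largest difference in each direction, with red points for Cux2 CPN and blue points for Tle4 CThPN. The gray line joins the 2 values of a gene, 1 deposited value per class.

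Of 11 pairs of related genes with both in the table, 9 had the same sign and 2 had opposite signs, Foxp1 with Foxp2 and Tle1 with Tle4. The pairs included genes under the minimum, among them Rora and Plxnd1, and the agreement of signs was not compared with that of other pairs. Of the TLE corepressors, Tle3 (39.7 against 3.25 FPKM, 3.26) and Tle1 (39 against 3.86 FPKM, 3.04) were higher in Cux2 CPN and Tle4 in Tle4 CThPN (-4.38). Foxp1 was at 148 against 50.7 FPKM (1.53), opposite to Foxp2. The value was 1.49 when the columns were scaled by their median ratio, and so under the limit. Nfia, a nuclear factor I gene, was at 11.4 against 61.9 FPKM (-2.34), and its relative Nfix was at 681 against 691 FPKM (-0.02). Igfbp5 was at 39.1 FPKM in Cux2 CPN against 3.3 FPKM in Tle4 CThPN (3.22), while Igfbp3, a second binding protein of insulin-like growth factors, was at 6.36 and 51.4 FPKM (-2.83).

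Secreted signals were among the leading callosal genes. Inhba, which encodes the activin A subunit, was at 55.4 FPKM in Cux2 CPN against 1.18 FPKM in Tle4 CThPN (4.69), the largest difference of a protein-coding gene in that direction. The activin antagonist Fst was at 11.5 and 0.983 FPKM (2.65), and Smad3, a transducer of activin and TGF-beta signals, at 15.1 and 1.35 FPKM (2.78). The TGF-beta superfamily list had 21 members, with a median of 0.54. Of these, 5 were higher in Cux2 CPN and 1 (Gdf10) in Tle4 CThPN, beside 2.72% and 2.65% of all genes. The minimum was reached only through Cux2 CPN by 8 members, among them those 5, and only through Tle4 CThPN by 1, Gdf10. Over the 26 list genes in the table, 5 and 1 were past the limit, with a median of 0.35. The neurotrophin Ntf3 was at 23.2 and 0.578 FPKM (3.94), whereas its receptor Ntrk3 was at 24.3 and 33.1 FPKM (-0.43). The growth factor Ptn was at 1490 and 133 FPKM (3.48). In the Wnt list, 0 of 10 members were higher in Cux2 CPN and 4 in Tle4 CThPN, beside 2.72% and 2.65% of all genes. Among the 4 were Wnt7b (21.4 against 171 FPKM, -2.94) and the Wnt inhibitor Apcdd1 (7.59 against 105 FPKM, -3.63). The minimum was reached only through Tle4 CThPN by 2 members, Apcdd1 and Sfrp2, and only through Cux2 CPN by 2 others. Over the 15 list genes in the table, 0 and 4 were past the limit.

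In the guidance and adhesion families, the members past the limit in either direction were 3 of 7 Eph receptors, 3 of 9 netrins and their receptors, 3 of 9 cadherins, 1 of 5 ephrins, 1 of 7 plexins and neuropilins, 1 of 6 slits and robos, 1 of 9 semaphorins, 2 of 5 protocadherins outside the clusters, 0 of 4 contactins and 0 of 8 teneurins, latrophilins and FLRT proteins, beside 5.37% of all 7820 genes. Of the members past the limit, Unc5c, Ntng2, Sema3a, Pcdh8 and Pcdh20 reached the minimum only through Cux2 CPN. Cdh9, Cdh18 and Slit1 reached it only through Tle4 CThPN. Over all family genes in the table, 4 of 12 netrins and their receptors were past the limit toward Cux2 CPN and 0 toward Tle4 CThPN. For 10 plexins and neuropilins this was 3 and 0, and for 10 Eph receptors and 12 cadherins each 2 and 2. Of the semaphorins, Sema3a was at 14.4 FPKM in Cux2 CPN against 2.3 FPKM in Tle4 CThPN (2.23). The other 8 members were within the limit. Sema5a, under the minimum, was at 0.764 against 4.86 FPKM (-1.73). Plxna4, a receptor component for class 3 semaphorins, was at 55.6 and 13.9 FPKM (1.92). Ephrin-B2 (Efnb2) was at 74.9 and 14.7 FPKM (2.27), and of the Eph receptors, Epha4 (45.9 against 11.8 FPKM, 1.88) was higher in Cux2 CPN, and Epha7 (23 against 88.7 FPKM, -1.90) and Ephb1 (21.5 against 114 FPKM, -2.36) in Tle4 CThPN. The netrin receptors Unc5c (13.1 against 1.94 FPKM, 2.26) and Neo1 (61.6 against 20 FPKM, 1.58) were higher in Cux2 CPN, as was Ntng2, a membrane-anchored netrin relative (12.5 against 0.705 FPKM, 2.99). Slit1, a repellent ligand of Robo receptors, was at 2.76 and 22.5 FPKM (-2.64), while Robo1 (0.69) and Robo2 (0.15) were within the limit. Of the 9 cadherin members, Cdh18 (0.723 against 13 FPKM, -3.03) and Cdh9 (2.46 against 18.2 FPKM, -2.47) were higher in Tle4 CThPN, and Cdh8 (37.5 against 12.6 FPKM, 1.51) was higher in Cux2 CPN, at 1.47 after median-ratio scaling.

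**Figure D3:**
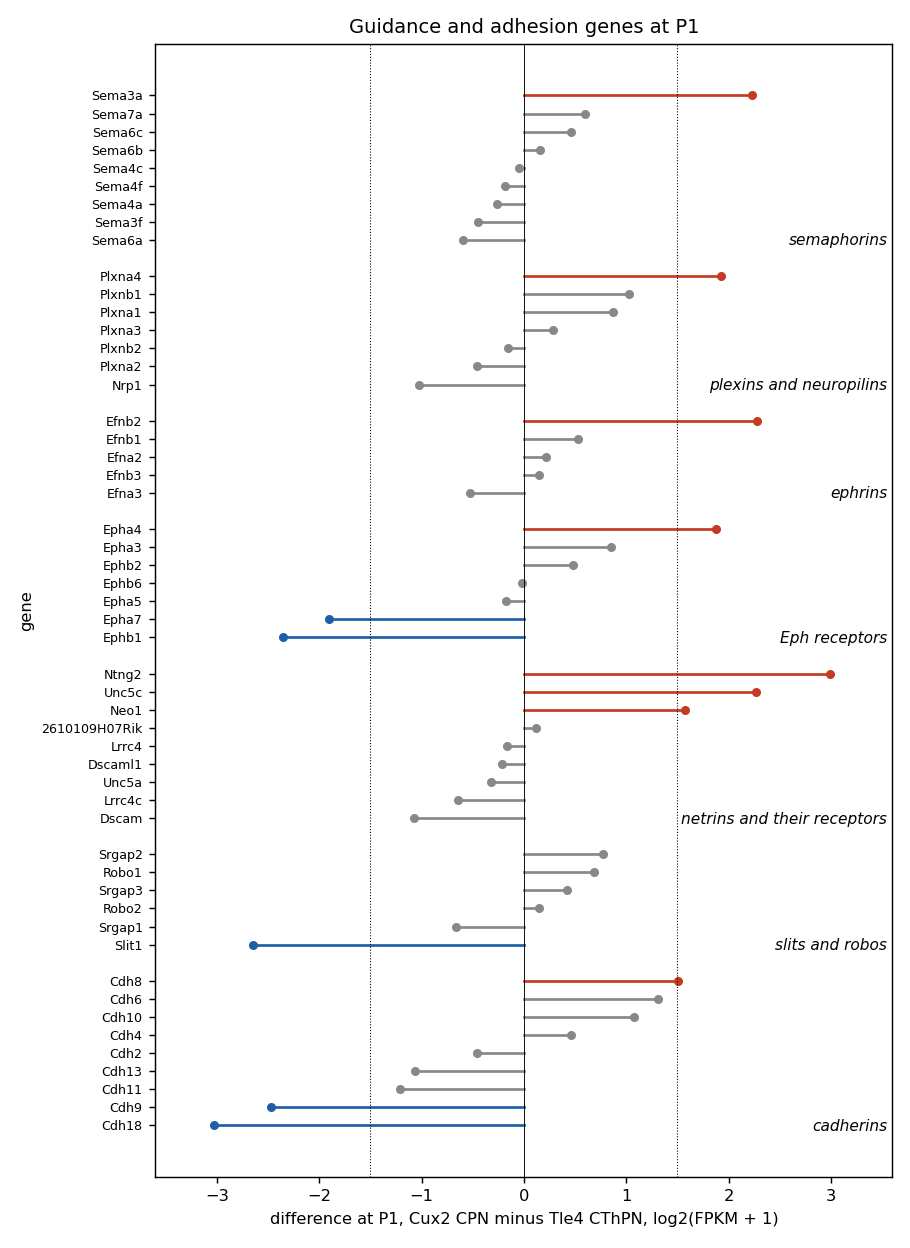
Difference at P1, Cux2 CPN minus Tle4 CThPN on the log2(FPKM + 1) scale, for members of 7 guidance and adhesion families, with dotted lines at the limit of 1.5 in each direction. Red marks genes higher in Cux2 CPN, blue marks genes higher in Tle4 CThPN, and most genes of each family lie between the lines.

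The vesicular glutamate transporters, which load transmitter into synaptic vesicles, went in opposite directions. Slc17a6 was at 18.7 FPKM in Cux2 CPN against 1.05 FPKM in Tle4 CThPN (3.26), and Slc17a7 was at 12.4 and 54.3 FPKM (-2.04). Among 11 members encoding ionotropic glutamate receptors, Gria1 (51.7 against 7.76 FPKM, 2.59) and Grin3a (10.6 against 1.73 FPKM, 2.09) were higher in Cux2 CPN. Gria3 (5.79 against 23.1 FPKM, -1.83) and Grik3 (5 against 30.2 FPKM, -2.38) were higher in Tle4 CThPN. Each of these reached the minimum only through the class where it was higher. Over the 14 in the table, 3 and 2 were past the limit, beside 2.72% and 2.65% of all 7820 genes. The GABA-A receptor subunits Gabra2 (12.2 against 1.65 FPKM, 2.32) and Gabra5 (47.3 against 14.3 FPKM, 1.66) were higher in Cux2 CPN. Of 26 potassium channel members, 3 were higher in Cux2 CPN, including Kcnh1 (13.1 against 2.86 FPKM, 1.87), beside 2.72% of all genes. In Tle4 CThPN 4 were higher, including Kcnk9 (1.38 against 14.2 FPKM, -2.67), beside 2.65%. The minimum was reached only through Cux2 CPN by 7 members and only through Tle4 CThPN by 7, and all those past the limit were among them. Over the 54 channels in the table, 4 and 5 were past the limit. The SNARE protein Snap25 was at 145 and 427 FPKM (-1.55). Over the 25 members of neurite and synaptic maturation the median was -0.05, with 3 higher in Cux2 CPN and 2 in Tle4 CThPN. Over the 25 of neuronal migration and immaturity it was 0.36, with 1 higher in Cux2 CPN, Prdm8 (42 against 12.2 FPKM, 1.71), and 0 in Tle4 CThPN. Both lists stand beside 2.72% and 2.65% of all genes. Of the 83 cytosolic ribosomal protein genes, 82 had a positive difference, beside 4226 of all 7820 genes. Their median was 0.56, and none was past the limit, beside 5.37% of all genes. The 81 respiratory chain members had a median of 0.06.

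Markers of interneurons moved with the Cux2 CPN side. Of the 12 members of that list, 11 were higher in Cux2 CPN, beside 2.72% of all genes, and these 11 reached the minimum only through Cux2 CPN. Over the 16 genes of the list in the table, 12 were past the limit toward Cux2 CPN and the median was 2.88, and Calb2 (4.79 against 2.15 FPKM), Vip (0.425 against 0.0371 FPKM) and Pvalb (listed at 0 in Cux2 CPN and at 0.100 FPKM in Tle4 CThPN) were low in both classes. Lhx6, a determinant of interneurons from the medial ganglionic eminence, was at 67.8 and 2.16 FPKM (4.44). Gad1 and Gad2, which make GABA, were at 18.53 against 1.33 FPKM and 12.1 against 0.586 FPKM. Dlx1 was at 42.8 against 3.09 FPKM and Sst at 40.9 against 5.44 FPKM. Of the 12 members, Npy alone was lower in Cux2 CPN, at 415 against 816 FPKM (-0.97). Summed over the 16 genes of the list in the table, levels were 764 FPKM in Cux2 CPN against 840 FPKM in Tle4 CThPN, and without Npy 348 against 24.4 FPKM. Of the 213 genes higher in Cux2 CPN, 202 are not on this list, and of the 15 leading protein-coding ones, 4 are. The part of interneurons in the values of any other gene was not tested here. In its methods, the study reports single-cell sequencing of both labeled populations, counted over classes and ages together. A small minority of those cells carried Gad1 or Gad2, and the study judged the effect of interneurons on its analysis minimal.

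Markers of other cell types were also measured. The 4 astrocyte members had negative differences, with a median of -1.40, and the 8 genes of the list in the table summed to 97.7 FPKM in Cux2 CPN against 286 FPKM in Tle4 CThPN. Of the members, Clu was past the limit (23.9 against 105 FPKM, -2.09). Slc1a2, an astrocytic glutamate transporter under the minimum of 10 FPKM, was at 1.206 against 8.998 FPKM (-2.18). The 3 blood members reached the minimum only through Cux2 CPN, where Hba-a1 was at 14.2 FPKM, against 2.16 FPKM in Tle4 CThPN (2.27). Of the oligodendrocyte lineage, the members Olig1 (3.596 against 10.71 FPKM, -1.35) and Mbp (10.4 against 4.70 FPKM, 1.00) had opposite signs within the limit. Mog and Mag, also on that list, were under 1 FPKM in both classes. The microglial markers C1qa, C1qb and C1qc were between 0.369 and 2.49 FPKM. Eif2s3y, a gene of the Y chromosome, was at 31.7 and 8.59 FPKM (1.77). The 7 members of the dissociation-induced list had a median of -0.61, with 5 of them negative, and ranged from -1.24 (Junb) to 1.22 (Fos). Of the 7, 0 were past the limit, beside 5.37% of all genes. Over the 12 list genes in the table, 1 was past it, Btg2 (1.13 against 7.96 FPKM, -2.07), which was under the minimum.

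**Figure D4:**
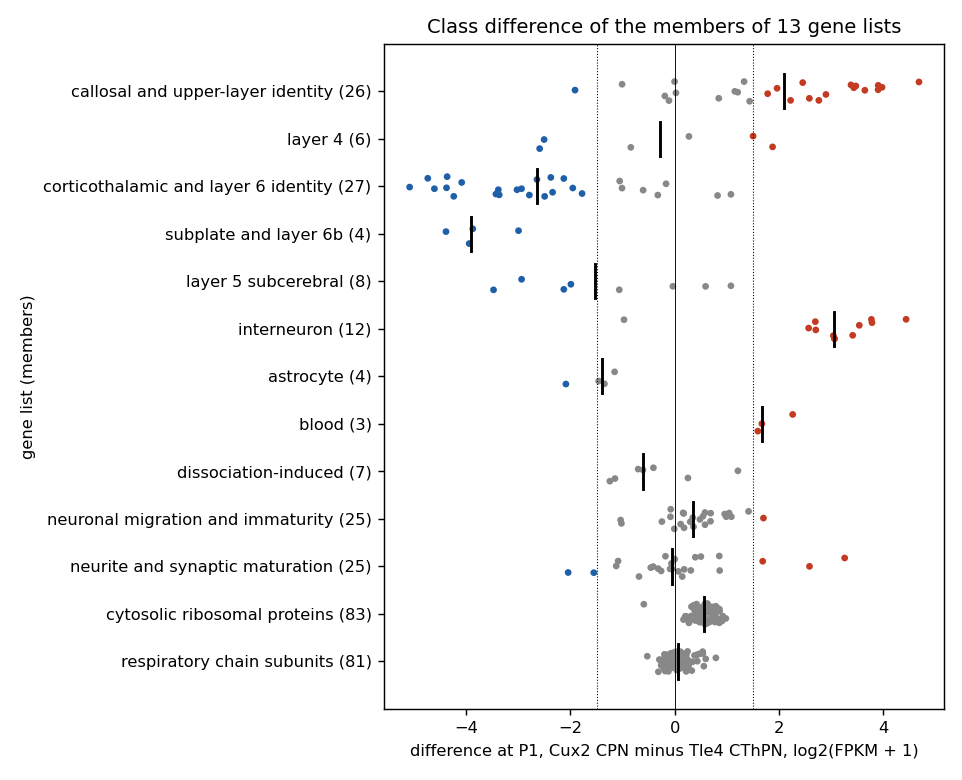
Difference at P1 for the members of 13 gene lists, each point a gene, red or blue when past the limit of 1.5 (dotted lines) and gray otherwise, with a black bar at the median of each list and the number of members in parentheses. The callosal and interneuron lists lie mostly to the right, and the corticothalamic and subplate lists to the left.

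The same comparison at the neighbouring ages used other libraries. Of the 213 genes higher in Cux2 CPN at P1, 145 were also past the limit at E18.5 and 168 at P3, and 133, 63 and 61 were so at P7, P21 and P48. Of the 207 higher in Tle4 CThPN, 159, 146, 104, 76 and 78 were past it at those ages. Over all 7820 genes, the share higher in Cux2 CPN by the limit at those ages was 2.19%, 2.74%, 2.38%, 1.88% and 1.74%, and the share higher in Tle4 CThPN was 3.02%, 2.28%, 1.96%, 2.25% and 2.24%. Of all 420, 91.2% were past the limit in the same direction at E18.5 or P3. At all 6 ages, the limit was passed by 26 genes in favour of Cux2 CPN and 45 in favour of Tle4 CThPN, while 137 and 121 were past it at neither P21 nor P48. Across the 7820 genes, which are not independent replicates, the P1 difference had a Pearson correlation of 0.851 with that at E18.5, 0.843 with that at P3, and 0.695, 0.470 and 0.465 with those at P7, P21 and P48.

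Some differences were larger with age around birth. Between E18.5 and P3 the difference widened by at least 1 in 41 of the 213 genes and narrowed by that much in 13, and in 32 and 39 of the 207. Over all 7820 genes, with the direction taken from the sign at P1, 2.83% widened and 2.72% narrowed by at least 1. Among all genes positive at P1, 3.43% widened and 1.14% narrowed, and among all genes negative at P1, 2.11% and 4.59%. The balance thus leaned the same way over all genes of each sign as in the genes past the limit. Rorb, an orphan nuclear receptor on the layer 4 list, was at 9.99, 18.8 and 35.1 FPKM at E18.5, P1 and P3 in Cux2 CPN, and at 12.6, 4.37 and 2.68 FPKM in Tle4 CThPN. The glypican Gpc5 went from 1.00 to 20.0 to 42.7 FPKM in Cux2 CPN and stayed between 0.463 and 1.63 FPKM in Tle4 CThPN. Lpl, lipoprotein lipase, was at 28.5, 117 and 153 FPKM in Cux2 CPN and at 14.8, 14.8 and 16.3 FPKM in Tle4 CThPN. On the other side, Ctgf was at 17.5, 37.2 and 84.3 FPKM in Tle4 CThPN and between 1.38 and 1.77 FPKM in Cux2 CPN. Kitl, the ligand of the receptor Kit and also on the layer 4 list, narrowed, with differences of -3.03, -2.59 and -0.92.

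In some genes the difference at P1 exceeded that at both neighbouring ages by at least 1.5. Ptpn6, a tyrosine phosphatase, was at 28.8 FPKM in Tle4 CThPN at P1 and between 0.0601 and 0.564 FPKM there at the other ages, and at 0.043 FPKM in Cux2 CPN at P1. Lmbr1 was at 153 FPKM in Tle4 CThPN at P1 and between 8.49 and 12.5 FPKM at the other ages, with 9.49 FPKM in Cux2 CPN at P1. Tuba1c, an alpha-tubulin with near-identical relatives whose reads can be shared, was at 15.1 against 2.00 FPKM at E18.5 (2.43), 48.6 against 1.63 FPKM at P1 (4.23) and 11.1 against 43.6 FPKM at P3 (-1.88). Whether both P1 libraries carry these values cannot be told from 1 value per class.

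**Figure D5:**
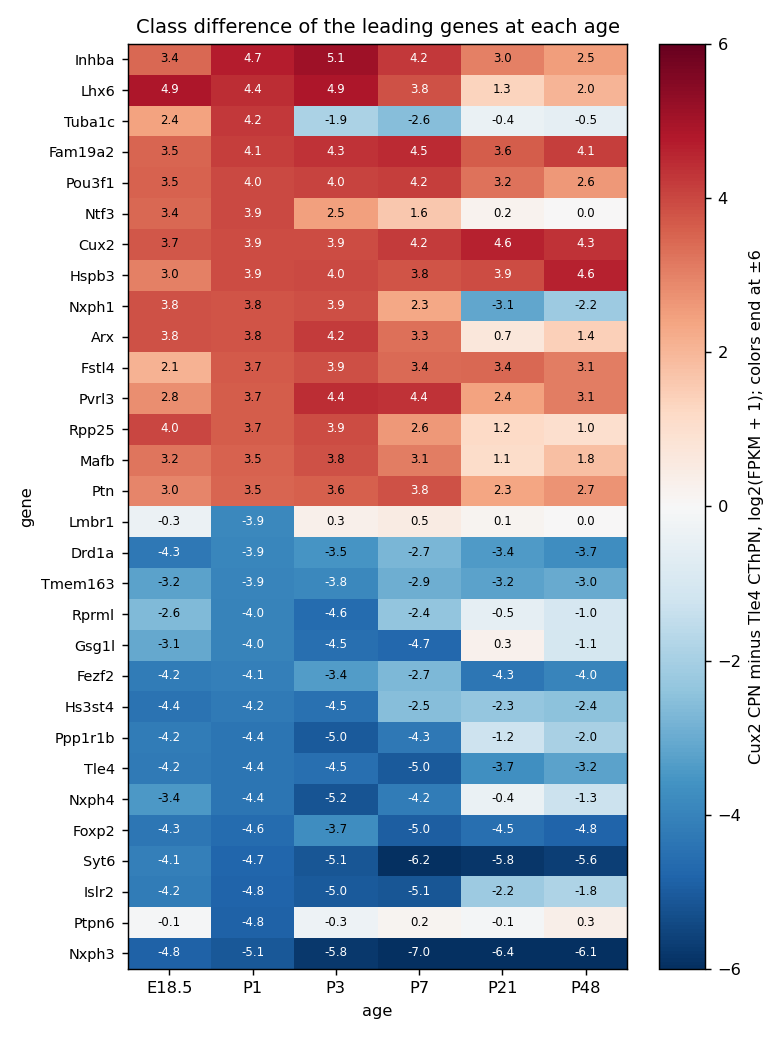
Difference, Cux2 CPN minus Tle4 CThPN on the log2(FPKM + 1) scale, of the 30 leading protein-coding genes of P1 at each of the 6 ages, with red for higher in Cux2 CPN and blue for higher in Tle4 CThPN. Lmbr1 and Ptpn6 are dark at P1 only, Tuba1c turns from red to blue at P3 and Nxph1 at P21, and most other genes keep their color.

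Promoters of 4 genes are shown because these genes are among the leaders of each class: Inhba and Hspb3, a small heat shock protein (61.9 against 3.19 FPKM, 3.91), for Cux2 CPN, and Fezf2 and Islr2 for Tle4 CThPN. Each window runs from 250 bases before to 50 bases after the annotated start in build NCBIM37, 5′ to 3′ on the gene's strand, and capitals mark CpG dinucleotides. Each is identical to the RefSeq window of that gene. Sequence was searched on both strands for ATCGAT (a CUX motif), ATGCAAAT (octamer of POU factors), AACAAT (SOX), GGTGTGA (T-box) and CAGATG (an E-box of bHLH factors). In these 4 windows GGTGTGA was in Hspb3 and the others had no match.
Inhba, chr13:16103434-16103733, plus strand: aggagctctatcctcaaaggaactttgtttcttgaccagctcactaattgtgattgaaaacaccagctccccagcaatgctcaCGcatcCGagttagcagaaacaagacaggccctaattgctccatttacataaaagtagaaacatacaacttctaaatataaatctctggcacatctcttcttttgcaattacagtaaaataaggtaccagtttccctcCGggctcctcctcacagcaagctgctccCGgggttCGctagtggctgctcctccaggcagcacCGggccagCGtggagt
Hspb3, chr13:114453835-114454134, minus strand: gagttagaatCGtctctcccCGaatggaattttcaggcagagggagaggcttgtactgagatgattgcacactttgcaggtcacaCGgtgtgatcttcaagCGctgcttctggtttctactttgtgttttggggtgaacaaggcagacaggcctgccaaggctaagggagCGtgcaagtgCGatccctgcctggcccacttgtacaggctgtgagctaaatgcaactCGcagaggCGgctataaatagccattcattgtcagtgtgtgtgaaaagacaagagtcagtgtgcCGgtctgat
Fezf2, chr14:13178330-13178629, minus strand: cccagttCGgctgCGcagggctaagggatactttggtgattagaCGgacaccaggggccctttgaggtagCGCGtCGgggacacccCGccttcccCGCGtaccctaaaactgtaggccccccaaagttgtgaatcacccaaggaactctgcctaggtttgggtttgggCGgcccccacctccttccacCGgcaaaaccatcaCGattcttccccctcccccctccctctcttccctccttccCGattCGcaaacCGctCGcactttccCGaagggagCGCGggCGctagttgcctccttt
Islr2, chr9:58052077-58052376, minus strand: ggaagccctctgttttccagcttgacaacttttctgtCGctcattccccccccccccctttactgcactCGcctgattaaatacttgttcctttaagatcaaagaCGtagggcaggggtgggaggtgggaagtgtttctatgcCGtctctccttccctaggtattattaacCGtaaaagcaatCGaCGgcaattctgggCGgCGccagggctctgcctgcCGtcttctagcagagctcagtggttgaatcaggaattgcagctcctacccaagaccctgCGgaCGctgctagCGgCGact
They hold 7, 9, 20 and 14 CpG in that order. Over the 7670 members with a window the median was 21 CpG, against 17 for the 205 genes higher in Cux2 CPN and 14 for the 191 higher in Tle4 CThPN. Fewer than 10 CpG were found in 15.9% of all windows, 33.2% of the Cux2 CPN set and 29.3% of the Tle4 CThPN set. In the 2234 windows identical to RefSeq the medians were 22, 20 and 19.5, and the shares with fewer than 10 CpG were 9.76%, 20% and 12%, the last being 6 of 50 windows. Of the motifs, ATGCAAAT was in 1.10% of all windows, 2.44% of the Cux2 CPN set and 2.62% of the Tle4 CThPN set. In the same order AACAAT was in 6.26%, 8.78% and 4.71%, CAGATG in 11.3%, 9.76% and 14.7%, GGTGTGA in 3.18%, 2.44% and 4.19%, and ATCGAT in 0.939%, 0.488% and 1.05%.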

How the data were processed

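RNA-seq libraries of sorted Cux2 CPN and Tle4 CThPN were made with the SMART-Seq kit from 10 ng of total RNA. For the authors' files, Trimmomatic removed read ends, TopHat2 placed the reads on mouse build NCBIM37 (mm9), and Cuffdiff gave the deposited FPKM over the 2 libraries of a group. The option for scaling between libraries was not given in the sources used here, and FPKM keep no read depth. The false discovery rate of the authors' calls could not be applied to pooled values.

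From the table, log2(FPKM + 1) differences were computed in Python 3.11.15 with numpy 2.4.6 and pandas 2.3.3, and figures were drawn with matplotlib 3.10.9. The gene sets came from 52 lists and 14 pairs of related genes. Named genes were the 15 largest differences in each direction, list genes, pairs of related genes, genes beyond both neighbouring ages and genes opposite at another age. The members, lists and rule were chosen with earlier results of these data known, and the pattern for ribosomal protein genes was corrected after the files were seen, to leave out kinases. Among the members, 32 share their symbol with another. Positions came from the GENCODE annotation of NCBIM37, which placed 7689 of the members. The values of 1 list gene are not reported here. The computation was tested on simulated data. Alternatives were other pseudocounts, limits and FPKM minimums, scaling by the median ratio, and other sets of symbols.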

Additional observations from a re-analysis of the deposited data

Results flagged for a closer look

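For 6 genes the difference between the classes at P1 was past the limit one way and past it the other way at both P21 and P48. With 1 value per class and age, the change was not tested. Nxph1, a neurexin ligand on the interneuron list, was higher in Cux2 CPN at P1 (3.79) and lower at P21 (-3.11) and P48 (-2.19). Its level went from 50.5 FPKM at P1 to 6.08 FPKM at P21 in Cux2 CPN, while Tle4 CThPN went from 2.73 to 60.0 FPKM. Arhgdib was at 2.08 at P1, -1.72 at P21 and -1.78 at P48, and Myc was at 1.54, -1.79 and -1.78. Penk, which encodes proenkephalin, was lower in Cux2 CPN at P1 (-2.78) and higher at P21 (2.16) and P48 (2.36). Whrn was at -2.51, 2.68 and 2.21. Gm13390, a short noncoding gene, was at -3.97, 2.97 and 7.30, and is listed at 0 in Cux2 CPN at P1 and in Tle4 CThPN at P48.

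Of the 65 entries set aside by their symbol, 63 were past the limit at P1, 24 toward Cux2 CPN and 39 toward Tle4 CThPN. Their FPKM summed to 2438010 in Cux2 CPN against 11150 in Tle4 CThPN. Among the entries that were kept, the pseudogene Gm12563, with 102 exon bases, was at 569540 FPKM in Cux2 CPN against 81.1 FPKM in Tle4 CThPN. The 20 kept small RNA symbols included 2 on the Cux2 CPN side of the limit and 12 on the Tle4 CThPN side, and 11 of the 20 are listed at 0 in Cux2 CPN.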

How the results depend on the processing

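The number of genes higher in Cux2 CPN was 213 and in Tle4 CThPN 207. A pseudocount of 5 gave 121 and 140, a minimum of 30 FPKM gave 92 and 103, a limit of 1 gave 350 and 376, and a limit of 2 gave 126 and 120. The share toward Cux2 CPN stayed between 46.4% and 52.7% under all settings run, which include protein-coding genes only and leaving out the interneuron list, both added after the data were seen. Scaling by the median ratio moved the differences of the named genes past the limit by 0.018 to 0.039 on the log2 scale, turned the median over all genes from 0.037 to -0.00057 and that of the potassium channel list to -0.031, and put Foxp1 and Cdh8 under the limit. With a pseudocount of 0.1 the median over all genes was 0.038, and Ptpn6 moved from -4.84 to -7.66. Of 172 named genes past the limit, 0 changed sign under either setting, but neither setting could have changed a sign. A pseudocount does not alter which class has the higher value. The largest move under scaling, 0.039, is far smaller than the limit these genes had passed. The unchanged signs are therefore no check of the differences. No paired analysis was possible because the columns hold 1 value per group and carry no replicate numbers, and leaving out a library was not possible for the same reason.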
